A study of Capra hircus with 10 samples.

Results

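Circular RNAs (circRNAs) of goat intramuscular fat cells were examined at loci where the reads of the circle made up a large part of all reads counted at its ends. For each circRNA, the reads that crossed its back-splice junction (J) and the linear, non-junction reads counted at its ends (N) were summed over the 10 libraries, and the circular share was taken as 2J/(2J+N). A share of 30% or more was reached by 145 of 1327 circRNAs, which are called high-share circRNAs here. A further 1177 circRNAs lay below 30% and 5 had no reads in these libraries. The 145 circRNAs were thus selected on J and N of all libraries of both groups, and their levels of J, N and share are given as a description with no test against the other circRNAs.

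The cells were wild type and came from intramuscular fat of the longissimus dorsi of male Jianzhou goats aged 7 days. Preadipocytes (IMPA) were collected at day 0 and adipocytes (IMA) at day 3 after the growth medium was replaced by inducing medium with 50 µmol/L oleic acid, and the labels give both groups the treatment adipogenic differentiation. There were 5 libraries per group, numbered IMPA1 to IMPA5 and IMA1 to IMA5. The study names 3 goats and does not say which goat gave which library, so p-values measure the spread between libraries, which may be technical. Cells were primary cultures, and day of culture and adipogenic induction cannot be told apart.

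A circRNA forms by back-splicing, in which the end of an exon is joined to the start of the same exon or of an earlier one, so that the RNA between them closes into a ring. The ring has no free ends and is resistant to exonucleases, so that circRNAs can persist and accumulate in cells that divide slowly. Each ring contributes 1 junction, whereas a linear transcript that runs through the same exons is read at both ends of the circle, which is why J is doubled in the share. Most circRNAs are minor products beside the mRNA of the same gene, and a few hosts, among them genes of chromatin, microtubule and signalling proteins, are known for abundant circles in many mammalian tissues.

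No circle sequence was at hand, and the sequences that can be shown are the primer pairs of the study for circRNAs whose junction reads are compared below. They are printed as the study's designed qRT-PCR reagents for these circles, in lower case and 5′ to 3′, without a marked base. They could not be placed on the genome here, so that it was not checked whether they lie across the back-splice junction. The same primer list gives 2 different pairs under 1 WWOX circRNA name, and neither of these is shown.
VASH2 circ_0008259 forward: actcgggagtccctgcctat
VASH2 circ_0008259 reverse: ttaacccactcagcggtctc
SLTM circ_0005478 forward: gtgcattccaaggagttgct
SLTM circ_0005478 reverse: ccactcaactcatctgcttcct
CAMSAP1 circ_0005860 forward: ctgctcgtactggtcgatgtaa
CAMSAP1 circ_0005860 reverse: ggagatgatcagcattgagaagg
CEP112 circ_0009231 forward: gaggaaccgcaacctgtacg
CEP112 circ_0009231 reverse: gctgccgttctgacctatgg
WHSC1 circ_0003129 forward: ccaccctcaccttcagcaaaa
WHSC1 circ_0003129 reverse: gcgtcagacaggtgtttcgt

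Summed over all circRNAs, junction reads per library ran from 11421 to 15553 in IMPA and from 9622 to 12499 in IMA. Non-junction reads summed to 297727 to 435228 in IMPA and 199376 to 291370 in IMA, so that every IMA library had fewer than any IMPA library. Junction reads were fewer in IMA on average (10713 against 13554), and the groups overlapped. By the mapping statistics of the study, a smaller part of the clean reads mapped to the genome in every IMA library than in any IMPA library, and the part of this in the results was not tested. A library in which a circRNA was not called has no entry for it. Such an entry was counted as 0 junction reads and left missing for N, and it concerned 103 of the library entries of high-share circRNAs. None of the fat, striated muscle, fibroblast, endothelial or macrophage marker lists could check the cell type from circRNAs, since the number of their genes that host a circle was 2, 5, 10, 0 and 0 respectively.

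The 145 high-share circRNAs had a median share of 42.4%, with a range of 30.1% to 92.7%, and the other circRNAs had a median of 7.94%. They held 35499 junction reads, 29.3% of all junction reads of the 10 libraries, and 82184 non-junction reads, 2.75% of all non-junction reads. Their median J was 121 against 52 for the other circRNAs, and their median N was 308 against 1413. Since J and N make up the share, the higher J and lower N of these loci follow in part from the rule. The linear reads still outnumbered the doubled junction reads at 97 of the 145 loci. The circle reached a share of 50% or more at 48 loci, and at 16 loci J exceeded N itself.

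**Figure D1:**
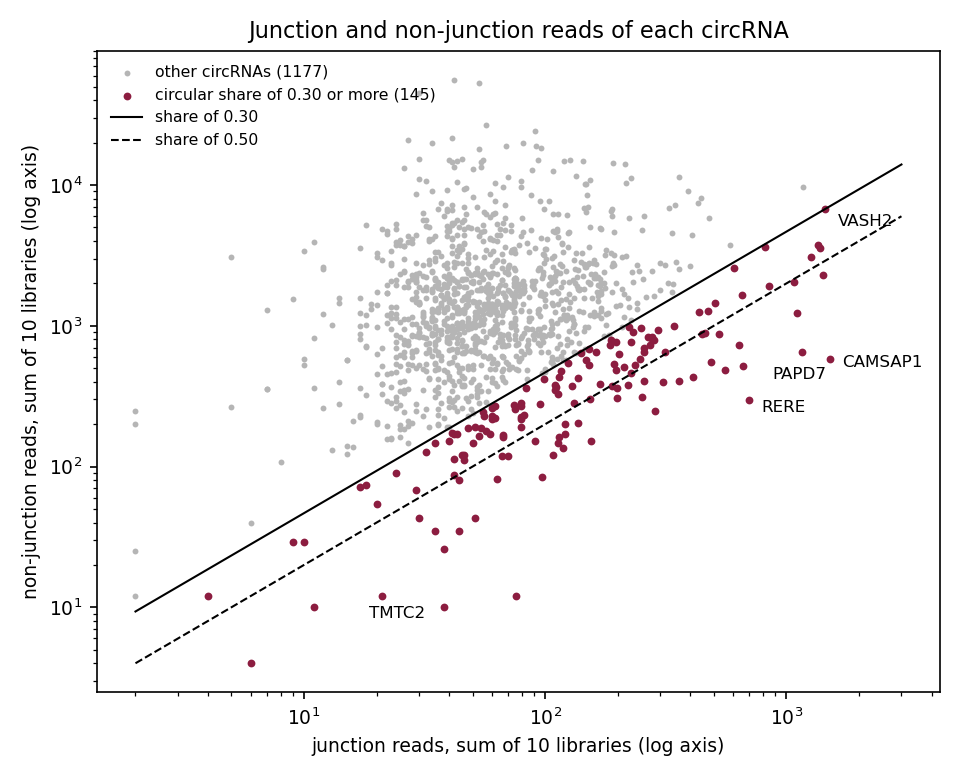
Summed junction reads (x axis, log scale) against summed non-junction reads (y axis, log scale) of each circRNA over the 10 libraries. High-share circRNAs lie below the line at a share of 30%, with a median of 121 junction and 308 non-junction reads against 52 and 1413 for the others.

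High-share circRNAs were common among the most abundant circles. They made up 9 of the 10 circRNAs with most junction reads, 18 of the 20 and 30 of the 50. Of the 21 circRNAs with at least 500 junction reads, 19 (90.5%) were high-share circRNAs, compared with 29 of 577 (5.03%) among those with fewer than 50. Since J enters the share, this is a property of the rule as well as of the loci. Depth also set how surely a locus lay above 30%. The lower bound of the 95% Clopper-Pearson interval of the share was at or above 30% for 107 high-share circRNAs, and the interval held 30% for 38 of them and for 52 others. These intervals cover counting error only.

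Most high-share circRNAs were built of exons. The source was exonic for 127 (87.6%), intronic for 13 (8.97%) and intergenic for 5 (3.45%), against 97.2%, 1.87% and 0.935% of the other circRNAs. The spliced length had a median of 342 nt and a range of 50 to 667 nt, and the median of the other circRNAs was 316 nt. The genomic span between the 2 ends had a median of 5512 bp against 8430 bp, and a span of 2 kb or less was found for 33 high-share circRNAs (22.8%) against 185 others (15.7%). Among exonic circRNAs, a single exon was seen in 28, 2 exons in 38, 3 exons in 35, 4 exons in 17, 5 exons in 8 and 6 exons in 1. The listed exons did not reach 1 or both ends of the circle in 23 of the 127 exonic high-share circRNAs (18.1%) and in 22.2% of the other exonic circRNAs. The spliced lengths of these circles are therefore less certain.

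The 140 circRNAs with a host gene came from 124 hosts. In 80 of these hosts the high-share circRNA was the only circRNA with reads in these libraries, 16 hosts gave 2, and 33 hosts also gave 54 circRNAs below 30%. Members of 1 host are not independent, and 12 pairs shared a start or an end and so part of their non-junction reads. The pairs belonged to PAPD7, SEMA3F, DGKH, WWOX, RERE, HTT, SATB1, ARHGAP32, CHD7, LRRC69, LOC102191110 and ZEB1. Predicted miRNA partners in the authors' list did not set the group apart in number. The median was 10 per high-share circRNA and 9 per other circRNA for the body of the circle. For the junction sequence, listed separately, it was 1 in both sets. The circles of VASH2 and WDFY3 were the only high-share circRNAs with no predicted partner of either kind.

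Some of the highest shares rested on few reads. An intronic circle of TMTC2, which codes for a membrane protein of the endoplasmic reticulum, had 38 junction and 10 non-junction reads (88.4%) and was not listed in IMA2. Its junction reads ran from 4 to 7 in IMPA and from 2 to 4 in the listed IMA libraries, with a share of 80% to 93.3% in the former and 66.7% to 100% in the latter. With so few linear reads the shares per library are coarse.

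The circle of CAMSAP1, a protein that binds the minus ends of microtubules, combined a high share with the most junction reads of all high-share circRNAs (circ_0005860, chr11:102883877-102885038, 2 exons, 425 nt). It had 1517 junction and 585 non-junction reads, a share of 83.8%. The share was 84.3%, 82.8%, 83.2%, 84.8% and 83.2% in IMPA1 to IMPA5 and 82.0%, 85.4%, 84.4%, 83.2% and 84.8% in IMA1 to IMA5. All libraries thus lay within a few percentage points and the groups overlapped. RERE, a transcriptional corepressor, gave a circle of 3 exons over 16297 bp with 700 junction and 298 non-junction reads (82.5%), and its share ranged from 75.3% to 90.7% between libraries. PAPD7, a non-canonical poly(A) polymerase, gave a circle of 5 exons with 1161 junction and 651 non-junction reads (78.1%, from 73.4% to 81.6% between libraries). INSR, the insulin receptor and the only host on the adipocyte list in the group, gave a circle of a single exon of 552 nt at chr7:96049039-96049590 with 663 junction and 515 non-junction reads (72.0%). IMPA libraries gave the INSR circle 64.4% to 76.9% and IMA libraries 70.9% to 77.0%, and the groups overlapped.

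A further 4 circRNAs among the 10 highest shares also had few reads. LOC102178253 had 21 junction reads, an intergenic circle on chr7 had 6, LOC108634524 had 38 and an intronic circle of EXOC6B, a subunit of the exocyst that tethers vesicles to the plasma membrane, had 44. Their shares lay between 71.5% and 77.8%, and none was listed in all libraries. The intergenic circle was listed in 2 libraries, IMA1 and IMA2, with 3 junction reads in each, and its interval ran from 41.6% to 93.5%.

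Among the 10 high-share circRNAs with most junction reads the share ranged from 30.1% to 83.8%. After CAMSAP1 came the circles of VASH2 with 1445 junction reads, SLC30A7, a zinc transporter of the secretory pathway, with 1425, SLTM, a nuclear RNA-binding protein, with 1384, and UBE3A, a ubiquitin ligase, with 1346. VEGFC, a growth factor of lymphatic vessels, had 1259, PAPD7 1161, the arginine methyltransferase PRMT2 1103, the cytoplasmic poly(A) polymerase PAPD4 1072 and the deubiquitinase USP3 851. The linear reads at these loci ran from 585 at CAMSAP1 to 6709 at VASH2. The loci were picked for their junction reads, which limits the spread of those reads, so it is not compared with that of the linear reads.

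**Figure D2:**
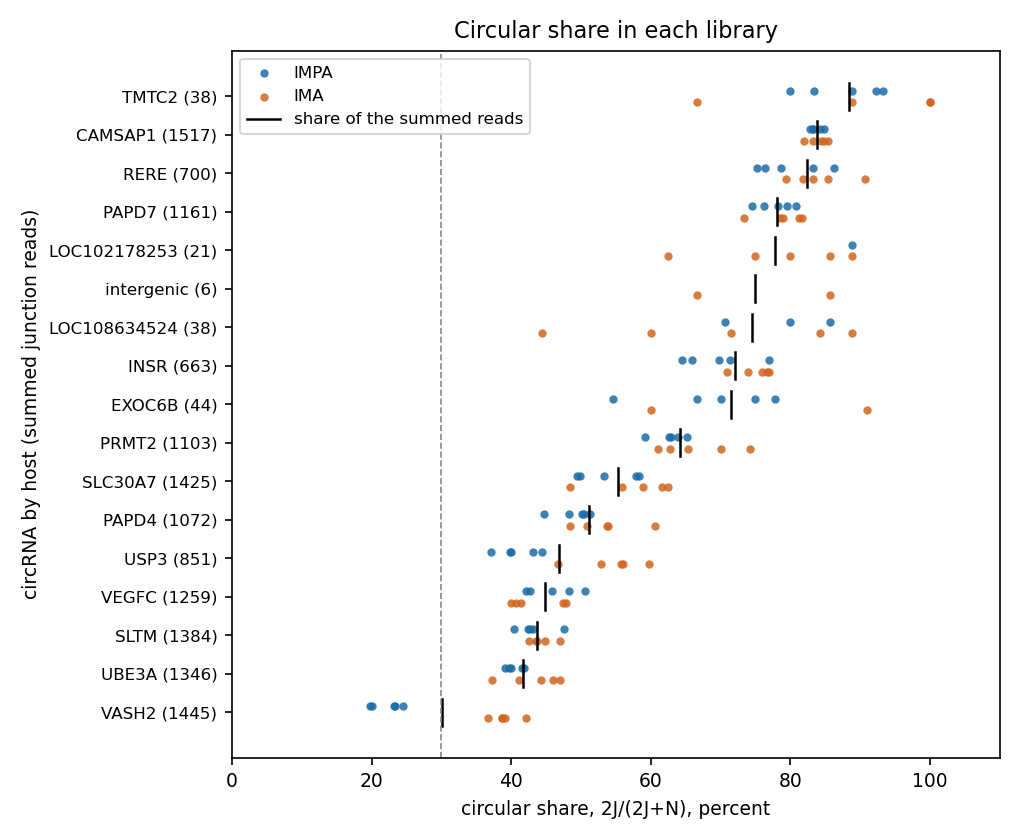
Circular share in percent (x axis) in each IMPA (blue) and IMA (orange) library for 9 of the 10 circRNAs with the highest shares and the 10 with most junction reads, with the share of the summed reads as a black bar and the 30% threshold dashed. The CAMSAP1 circle stays between 82.0% and 85.4%, whereas the VASH2 circle lies below 30% in all IMPA libraries and above it in all IMA libraries.

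At the threshold, the 3 circRNAs just inside were those of GPCPD1, a glycerophosphocholine phosphodiesterase (30.8%), ZCCHC24 (30.5%, intronic) and VASH2 (30.1%). The 3 just outside were those of ASB7 (29.9%), AMBRA1 (29.9%) and LOC102169045 (29.9%). All 6 intervals included 30%. The share was at or above 30% in every library with an entry for 72 of the 145 circRNAs, and in the sums of both groups for 118. With IMPA libraries alone 131 circRNAs reached 30%, and with IMA libraries alone 177.

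Neighbouring circles of the same host could differ widely in share. The UBE3A circle of 5 exons had a share of 41.7%, while the other 2 circles of this gene had 3.98% and 6.51%. The SLC30A7 circle had 55.4% against 4.13% for a second circle, and the VEGFC circle had 44.9% against 7.69%. At UBE3A the contrast lay in J rather than in N. There circ_0009593 had 1346 junction and 3771 non-junction reads, and circ_0009591 had 78 junction and 3768 non-junction reads. CEP112, a centrosomal protein, gave 1 circle of 40.7% and 10 further circles of 6.49% to 24.0%. In contrast, WWOX, an oxidoreductase with WW domains, gave a pair of high-share circles that share a start, with 63.8% over 4179 bp and 69.5% over 46939 bp.

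The 13 intronic high-share circRNAs had shares from 30.5% to 88.4% and a median J of 67, against 137 for the exonic ones. The name intronic is the authors', and 10 of the 13 were listed with 2 or more separate blocks of sequence rather than as 1 unbroken stretch. RCL1, a factor of ribosomal RNA processing, had the most junction reads (248, share 46.1%, 4 blocks). WDFY3, a scaffold of selective autophagy, followed with 199 junction reads (56.4%), ZCCHC24 had 141 and EPB41L4A, a protein of the band 4.1 family, had 124. Both intronic circles of SEMA3F, a secreted semaphorin, spanned under 400 bp with shares of 45.1% and 54.5%. HDAC4, a histone deacetylase, YAF2, TTC28, SLX4IP and LOC106504024 completed the set with 32 to 67 junction reads, shares of 33.5% to 60.6% and an entry in 8 to 10 libraries, next to TMTC2 and EXOC6B. The 5 intergenic circles had 6 to 42 junction reads.

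By the function of their hosts, high-share circRNAs included 10 of 51 circRNAs of chromatin and transcription regulators, 8 of 30 of transcription factors, 12 of 92 of kinases, phosphatases and signalling proteins and 8 of 77 of cytoskeleton and centrosome proteins. They included 4 of 51 of the ubiquitin system, 3 of 37 of RNA binding and splicing proteins and 2 of 30 of membrane trafficking. Of 29 circRNAs of hosts that are widely detected as circRNA hosts in mammals, 5 were high-share circRNAs (ATXN2, CAMSAP1, CDYL, FBXW7 and SLTM). None of the 5 circRNAs of striated muscle genes and none of the 20 of fibroblast and matrix genes reached 30%. Beside these counts, 145 of 1327 circRNAs of the whole table were high-share circRNAs. The counts are descriptions and were not tested, and no profile of host functions is read from them.

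The share was compared between IMPA and IMA over the 101 high-share circRNAs listed in all libraries. Their pooled share was 46.3%, 45.0%, 47.8%, 44.1% and 44.0% in IMPA1 to IMPA5 and 51.3%, 48.1%, 48.4%, 50.2% and 49.9% in IMA1 to IMA5. The mean thus went from 45.4% ± 1.62 to 49.6% ± 1.33 (SD, n = 5), and the groups did not overlap. The other circRNAs listed in all libraries went the same way, from 6.52% ± 0.316 to 7.61% ± 0.204 (SD, n = 5), again without overlap. The rise was thus seen in both sets, and whether it differed between them was not tested. Of 142 high-share circRNAs with reads in both groups, 99 (69.7%) had the higher share in IMA, and so did 874 of 1164 others (75.1%).

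**Figure D3:**
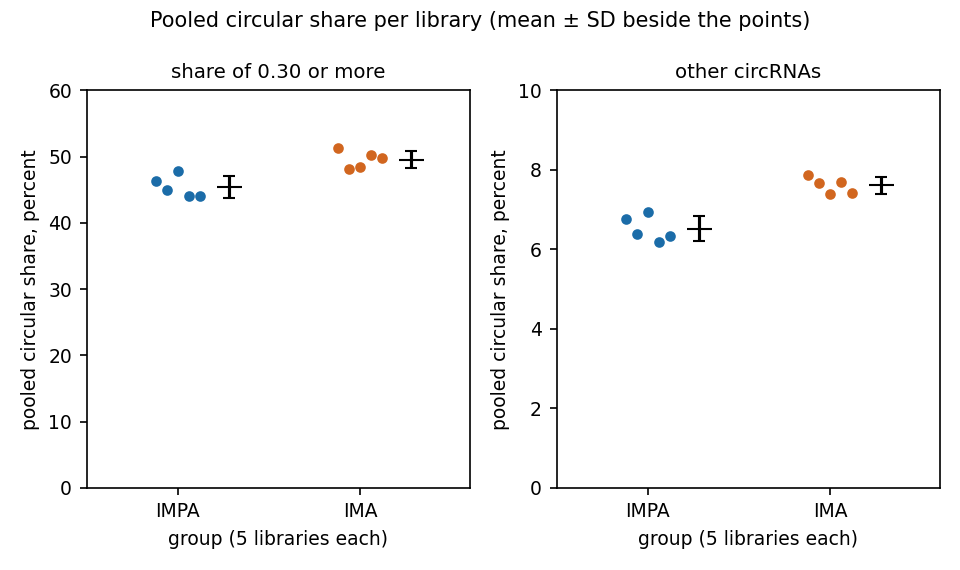
Pooled circular share in percent (y axis) of each library by group, for the 101 high-share circRNAs (left) and for the other circRNAs (right) listed in all libraries, with the mean ± SD beside the points (n = 5). IMA lies above IMPA in both, at 49.6% against 45.4% and 7.61% against 6.52%, and the 2 y axes differ. The 2 sets were selected on the reads that make up these shares.

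Junction reads were next tested between IMA and IMPA with edgeR's quasi-likelihood test over 1294 circRNAs with a count in at least 5 libraries, of which 139 were high-share circRNAs. At an adjusted p under 0.01, 1 high-share circRNA was higher in IMA (VASH2) and 4 were lower (EEFSEC, SLTM, CEP112 and WHSC1), where the background over all circRNAs tested was 0.464% higher and 0.464% lower. They made up 5 of the 12 circRNAs called in the whole table. They also had more reads to test, with a median J of 121 against 52. At an adjusted p under 0.05 there was still 1 higher, against a background of 0.464%, and there were 9 lower, against a background of 1%. Over all 139 the median log2 difference was -0.12, and over all circRNAs tested it was -0.07. The 5 libraries of a group did not overlap with those of the other for 5 high-share circRNAs higher in IMA (background 2.24%) and for 13 lower in IMA (background 2.32%). The 5 were VASH2, USP3, PAPD4, ZNF827 and PARP8, of which the last 2 had entries missing in some libraries.

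The circle of VASH2, vasohibin-2, known from angiogenesis and as a tubulin carboxypeptidase, had the clearest change (circ_0008259, chr16:69271526-69272417, 2 exons, 132 nt). Its junction reads were 98, 88, 128, 112 and 144 in IMPA1 to IMPA5 and 185, 178, 186, 160 and 166 in IMA1 to IMA5. Every IMA library lay above every IMPA library, while IMA libraries held fewer junction reads on average (10713 against 13554). Per 10000 junction reads after TMM scaling the level rose from 86.2 ± 11.4 to 159.5 ± 6.72 (SD, n = 5 per group), a log2 difference of 0.87 ± 0.11 (SE) and a 1.83-fold rise, with an edgeR adjusted p of 2.40e-06. It passed the test whichever library was left out, but its rise is tied to its selection, as given below.

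The linear reads at the VASH2 circle did not follow. They numbered 783, 716, 788, 733 and 950 for IMPA and 509, 564, 641, 499 and 526 for IMA, which after TMM scaling gave 37.7 ± 1.04 and 38.8 ± 2.40 per 10000 non-junction reads (SD, n = 5, edgeR adjusted p = 0.622). The share accordingly moved from 20%, 19.7%, 24.5%, 23.4% and 23.3% in IMPA to 42.1%, 38.7%, 36.7%, 39.1% and 38.7% in IMA. VASH2 thus reached 30% through the IMA libraries alone, with 22.3% in the IMPA sums and 39.0% in the IMA sums. Its rise in J is therefore tied to its selection, and its call is not read as a result about high-share circRNAs. The test and its adjustment ran over all circRNAs tested, selected or not. It was 1 of 18 high-share circRNAs with less than 30% in IMPA and 30% or more in IMA, and 6 were the other way round.

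Of the circRNAs that were lower in IMA, that of EEFSEC, the elongation factor for selenocysteine, showed the largest log2 difference among the high-share circRNAs, but entries were missing (circ_0010189, chr22:59343961-59345009, 1 exon, 165 nt). It had 86, 73, 90, 73 and 112 junction reads in IMPA, and 33, 33 and 25 in IMA1, IMA4 and IMA5, while IMA2 and IMA3 had no entry. With the missing entries counted as 0 the log2 difference was -1.87 ± 0.31 (SE, edgeR adjusted p = 2.06e-04). The 3 listed IMA libraries alone lay below every IMPA library. DESeq2's Wald test gave an adjusted p of 0.277, and the circRNA could not be tested when only circRNAs listed in all libraries were kept. Entries were also missing for GPCPD1, whose circle had 62 to 115 junction reads in 9 libraries and none in IMA5, so that a missing entry was also seen for a circle with high counts in all other libraries.

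The SLTM circle fell together with the linear reads of its locus (circ_0005478, chr10:51801889-51805740, 3 exons, 311 nt). Junction reads were 175, 147, 210, 155 and 196 in IMPA and 101, 85, 120, 87 and 108 in IMA, without overlap. After scaling this was 133.9 ± 12.4 against 91.0 ± 9.09 per 10000 (SD, n = 5), a log2 difference of -0.55 ± 0.11 (SE, edgeR adjusted p = 0.0026). Non-junction reads were 399 to 525 in IMPA and 219 to 295 in IMA, a scaled log2 difference of -0.30 ± 0.06 (SE, edgeR adjusted p = 4.77e-04). The share had means of 43.3% ± 2.63 for IMPA and 44.4% ± 1.66 for IMA (SD, n = 5, edgeR adjusted p = 0.804). The junction call was lost without IMA1, IMA2 or IMA4 (edgeR adjusted p up to 0.0126) and without TMM (edgeR adjusted p = 0.0119).

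CEP112 and WHSC1 also passed, with less margin. The CEP112 circle (circ_0009231, chr19:61732412-61736148) had 59, 42, 72, 47 and 67 junction reads in IMPA and 30, 30, 32, 25 and 29 in IMA, a log2 difference of -0.68 ± 0.15 (SE, edgeR adjusted p = 0.00779), and its linear reads had a log2 difference of 0.00 (edgeR adjusted p = 0.99). None of the 10 other CEP112 circles passed for junction reads, with log2 differences from -0.98 to 0.37. Those that share a start or an end with it were lower too, at -0.98 (circ_0009227), -0.83 (circ_0009229) and -0.48 (circ_0009232). They had only 41, 40 and 98 junction reads, and the remaining ones went in both directions. The circle of WHSC1, a histone H3 lysine methyltransferase, had 32, 27, 34, 34 and 33 junction reads in IMPA and 16, 13, 13, 15 and 15 in IMA, a log2 difference of -0.81 ± 0.18 (SE, edgeR adjusted p = 0.00872). DESeq2's Wald test gave the WHSC1 linear reads a log2 difference of -0.19 (adjusted p = 0.312). The WHSC1 circles that share a start or an end with it went in both directions, at -0.23 (circ_0003127) and 0.23 (circ_0003133). They had 62 and 45 junction reads and did not pass. The high-share circles of CEP112 and WHSC1 had no overlap between groups. With 1 library left out, CEP112 stayed under 0.01 in 2 of 10 cases, with an adjusted p of up to 0.0347, and WHSC1 in 0 of 10, with 0.0115 to 0.0554. Without TMM the edgeR adjusted p was 0.0252 for CEP112 and 0.0253 for WHSC1.

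Another 5 high-share circRNAs were lower in IMA at an adjusted p between 0.01 and 0.05. They were the shorter WWOX circle (log2 -0.74, edgeR adjusted p = 0.01002), that of LOC102191110 (-0.80, 0.0156), that of CDYL, a chromodomain corepressor (-0.68, 0.0158), that of RARB, the retinoic acid receptor beta (-0.80, 0.0185), and that of CAMSAP1 (-0.43, 0.0457). Junction reads of the CAMSAP1 circle were 215, 156, 176, 176 and 216 in IMPA and 100, 129, 116, 99 and 134 in IMA. Its groups, like those of the other 4, did not overlap after TMM scaling, but they overlapped on library totals alone. The share of the CAMSAP1 circle did not differ beyond the spread (83.7% ± 0.86 and 84.0% ± 1.38, SD, n = 5). Testing only the circRNAs listed in all libraries was a setting chosen after seeing the data. There all 5 were lower at an edgeR adjusted p under 0.01, together with SLTM, CEP112 and WHSC1, and EEFSEC could not be tested. Without TMM the edgeR adjusted p of the 5 ran from 0.0304 (WWOX) to 0.145 (CAMSAP1). With 1 library left out, each of them was under 0.01 in at most 1 of 10 cases, with an edgeR adjusted p of up to 0.1755.

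**Figure D4:**
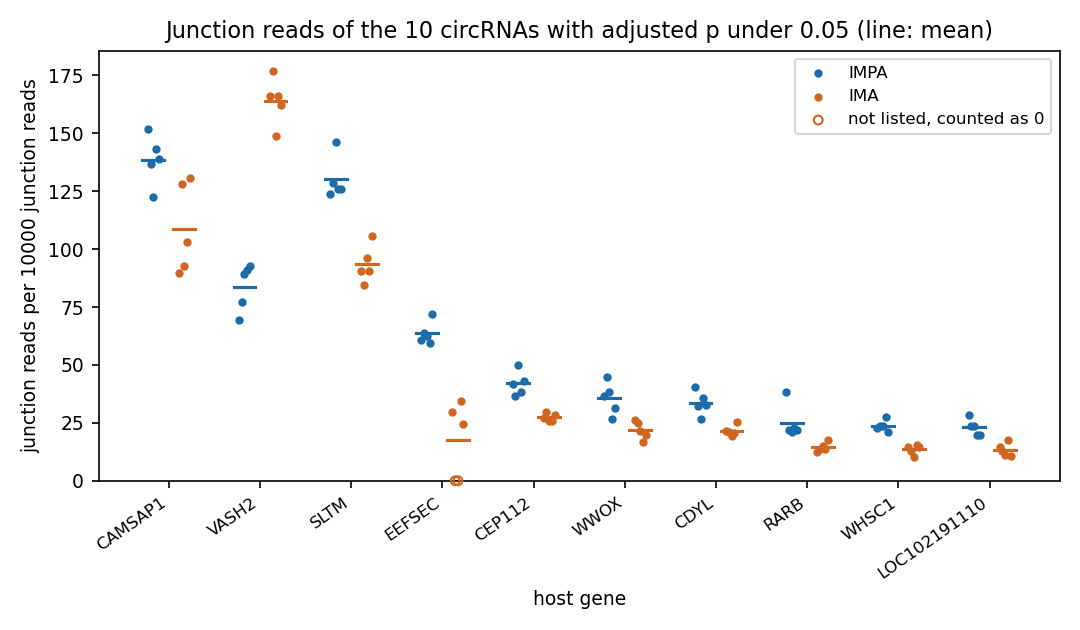
Junction reads per 10000 junction reads of each library (y axis, library totals without TMM) for the 10 high-share circRNAs with an adjusted p under 0.05, with IMPA in blue, IMA in orange and bars at the means (n = 5). VASH2 is the circle that is higher in IMA, and the open points of EEFSEC are the IMA2 and IMA3 libraries with no entry.

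Non-junction reads are taken here as a measure of the linear RNA at the ends of the circle. Whether some came from a larger circle across the same end was not checked. The longer WWOX circle, for 1, lies across an end of the shorter. Non-junction reads were tested over the 690 circRNAs listed in all libraries, 101 of them high-share circRNAs. At an adjusted p under 0.01, 2 were higher in IMA, against a background of 11.6%, and 6 were lower, against a background of 10.1%. The called share was thus 7.92% of the high-share circRNAs and 21.7% of all circRNAs tested, and the high-share loci had fewer linear reads to test. At an adjusted p under 0.05 there were 8 higher (background 18.4%) and 15 lower (background 17.2%). The groups did not overlap for 2 higher (PAPD4 and FAM228B, background 12.2%) and 9 lower (background 10%). The median log2 difference was -0.06, and 0.00 over all tested.

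The linear reads of WWOX fell furthest among the high-share circRNAs called. At the longer WWOX circle (circ_0008835, chr18:6479798-6526736) they were 43, 32, 37, 34 and 42 in IMPA and 11, 12, 13, 10 and 15 in IMA, without overlap, a scaled log2 difference of -0.96 ± 0.18 (SE, edgeR adjusted p = 1.01e-04). Its junction reads were 29 to 47 in IMPA and 13 to 29 in IMA (log2 -0.66, edgeR adjusted p = 0.0935). The shorter circle, which shares its start, had a log2 difference of -0.45 in linear reads (edgeR adjusted p = 0.0133).

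Linear reads also fell at PANK1, a pantothenate kinase of coenzyme A synthesis, with 114, 118, 156, 96 and 182 in IMPA and 55, 50, 80, 44 and 44 in IMA (log2 -0.70 ± 0.13 SE, edgeR adjusted p = 1.05e-04). They fell at PHLPP1, a phosphatase that acts on AKT, from 67 to 95 reads in IMPA to 20 to 55 in IMA (log2 -0.72 ± 0.15 SE, edgeR adjusted p = 5.25e-04). A second PHLPP1 circle below the threshold gave a log2 difference of -0.69 in its linear reads (edgeR adjusted p = 1.77e-04). It shares its start with the first and so part of the linear reads, and the 2 values are not independent. The locus of huntingtin, HTT, gave -0.59 at circ_0003150 (edgeR adjusted p = 0.00336), and that of MICAL3, an actin-oxidising monooxygenase, gave -0.59 (edgeR adjusted p = 0.00758). The junction reads of these 4 circles did not pass, with log2 differences between -0.31 and -0.12. The MICAL3 call was lost in 8 of the 10 cases with a library left out and the HTT call without IMA1 or IMA3. DESeq2's Wald test gave MICAL3 an adjusted p of 0.0182 and limma gave HTT 0.0219.

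Linear reads rose at PAPD4, from 10.4 ± 0.782 to 13.5 ± 0.975 per 10000 non-junction reads after scaling (SD, n = 5, log2 0.37 ± 0.08 SE, edgeR adjusted p = 4.96e-04), with counts of 203 to 237 in IMPA and 157 to 234 in IMA. Its junction reads had a log2 difference of 0.32 (edgeR adjusted p = 0.175), and for neither kind of read was there an overlap between groups after scaling. LOC102176015 was the other circRNA with higher linear reads (log2 0.37, edgeR adjusted p = 0.00757), and this call was lost in 6 of 10 cases with a library left out. Between 0.01 and 0.05, linear reads were higher at CEP70, HEBP1, FANCC, FAM228B, VEGFC and MBTPS2, the protease that releases SREBP transcription factors, with log2 differences of 0.20 to 0.59. In the same range they were lower at PRMT2, NDST1, CENPJ, DGKH, SPPL3, the replication licensing factor CDC6, circ_0003147 of HTT, the shorter WWOX circle and circ_0009530 of PAPD7, with log2 differences of -0.62 to -0.28.

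**Figure D5:**
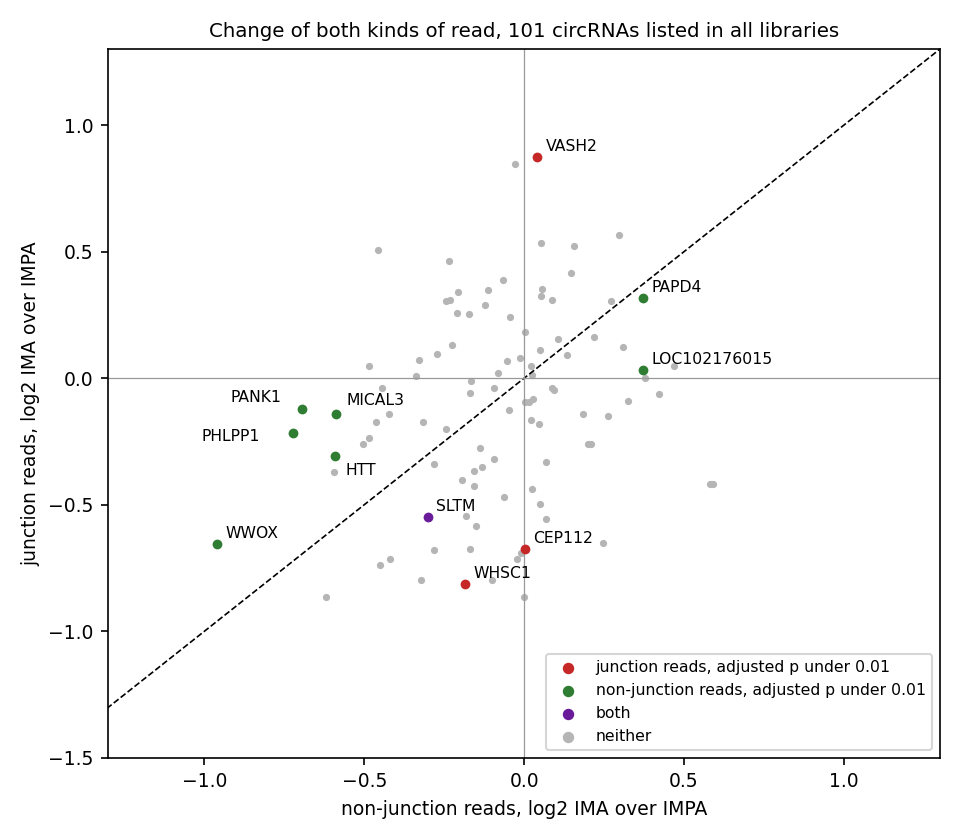
Log2 difference IMA over IMPA of the non-junction reads (x axis) and of the junction reads (y axis) after TMM scaling within each kind of read, for the 101 high-share circRNAs listed in all libraries, with calls at an adjusted p under 0.01 coloured and the dashed line where both are equal. VASH2 at 0.87 and CEP112 at -0.68 lie near 0 on the x axis, PANK1 and PHLPP1 moved mainly in linear reads, and SLTM is called in both.

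The change of the share itself was tested as the interaction of kind of read and group within libraries, over the same 690 circRNAs. At an adjusted p under 0.01, 3 high-share circRNAs (VASH2, USP3 and PANK1) had a higher ratio of junction to non-junction reads in IMA, against a background of 3.04%, and 0 had a lower one, against a background of 0%. At an unadjusted p under 0.05 there were 24 of 101 higher (23.8%) and 1 lower (FANCC, 0.99%), where 23.3% and 2.17% of all circRNAs tested were, and at an adjusted p under 0.05 there were 8 higher (background 8.84%) and 0 lower (background 0.29%). The groups did not overlap for 6 higher (background 4.93%) and 0 lower (background 0.145%). The counts of higher circRNAs include VASH2, and at an adjusted p under 0.05 also EPB41L4A and PALLD. These circRNAs entered the group through their IMA libraries, so the counts are partly set by the selection and are not read against the background. The ratio was shifted upwards in the table as a whole, by a median log2 of 0.28 over all circRNAs tested and 0.25 over the high-share circRNAs. The changes of USP3 and PANK1 are therefore also given relative to the median of all.

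Of the 8 circles with an adjusted p under 0.05, those of VASH2, EPB41L4A and PALLD lay under 30% in the IMPA sums and were high-share circRNAs through IMA alone. Their change of share is tied to the selection. It is given as a description, and their calls are not read as a result about high-share circRNAs. The log2 difference of the ratio was 1.15 for VASH2, 0.98 for EPB41L4A, an intronic circle with 24.1% ± 4.19 in IMPA and 40.4% ± 4.78 in IMA (SD, n = 5), and 1.11 for PALLD, an actin-bundling protein.

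The circle of USP3, a deubiquitinase of histones, was above 30% in both groups (circ_0005511, chr10:56624085-56628179, 4 exons). Its share was 40%, 37.2%, 44.4%, 39.8% and 43.1% in IMPA and 46.7%, 52.9%, 56.0%, 59.7% and 55.7% in IMA, without overlap, a log2 difference of 0.76 ± 0.16 (SE, edgeR adjusted p = 3.92e-04) or 0.48 above the median. Its second circle, at 14.5%, which shares its start and so part of its linear reads, had a log2 difference of 0.45 (edgeR adjusted p = 0.22). At PANK1, whose circle is a single exon of 353 nt, the share was 40.6%, 31.4%, 29.7%, 40% and 27.8% in IMPA and 46.6%, 43.2%, 47.4%, 57.7% and 45.0% in IMA (log2 0.86 ± 0.23 SE, edgeR adjusted p = 0.00571), or 0.58 above the median. The linear reads passed their own test at PANK1, and at USP3 neither kind of read did, with log2 differences of 0.39 in J (edgeR adjusted p = 0.105) and -0.06 in N (edgeR adjusted p = 0.658).

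With the 2 kinds of read scaled separately, which removes the general shift, neither USP3 (log2 0.48, edgeR adjusted p = 0.0728) nor PANK1 (log2 0.57, edgeR adjusted p = 0.125) passed, and limma on the log2 ratio gave both an adjusted p of 0.0899. The other 3 circles with an adjusted p under 0.05 that lay above 30% in both groups were those of RCL1, SCMH1 and FBXW7. The log2 difference was 0.84 for RCL1 (edgeR adjusted p = 0.0142) and 1.22 for SCMH1, a polycomb protein (0.0307). It was 0.84 for FBXW7, the substrate receptor of a ubiquitin ligase (0.0393). With the 2 kinds scaled separately the edgeR adjusted p was 0.176, 0.148 and 0.249. With 1 library left out they were under 0.01 in 3, 1 and 0 of 10 cases. The FBXW7 circle is a single listed exon of 50 nt with shares of 40% to 48.4% in IMPA and 50% to 67.8% in IMA. The RCL1 circle, an intronic one, went from 39.8% ± 7.37 to 54.2% ± 8.28 (SD, n = 5).

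Across the host lists, the junction reads of the 5 circles of widely detected hosts had log2 differences from -0.68 (CDYL) to 0.31 (FBXW7), with 1 lower at an adjusted p under 0.01 (SLTM) and 3 lower under 0.05. These counts stand beside a background over all circRNAs tested of 0.464% in each direction for junction reads at 0.01, of 1% lower at 0.05, of 10.1% lower for linear reads and of 3.04% higher for the ratio, and with so few circles per list nothing is read from them. Of 12 circles of signalling hosts tested, 0 passed for junction reads in either direction, and of the 11 tested for linear reads 1 was lower (PHLPP1). Of 8 circles of cytoskeleton and centrosome hosts, 1 was higher (VASH2) and 1 lower (CEP112) in junction reads. Of 10 of chromatin regulators 1 was lower (WHSC1), and of 8 of transcription factors 0 passed at 0.01 and 1 was lower at 0.05 (RARB). Of 4 circles of the ubiquitin system 0 passed for junction reads and 1 for a higher ratio (USP3). The INSR circle had 56 to 85 junction reads in IMPA and 51 to 79 in IMA, a log2 difference of 0.11 (edgeR adjusted p = 0.736), and its linear reads one of 0.05 (edgeR adjusted p = 0.815).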

How the data were processed

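Libraries were depleted of ribosomal RNA and sequenced on an Illumina HiSeq instrument. The authors dropped reads of low quality and aligned the rest with HISAT2. A circRNA was kept where find_circ, with 2 reads or more, and CIRI2 called the same location. SAMtools is named in the submitters' processing notes. Genome build, annotation and tool versions are not given in the sources used here, and positions are those of the files. The deposited counts, which the authors did not normalize, are numbers of junction and of non-junction reads for each circRNA in each library, and the lowest count above 0 is 2. The deposited TPM values were made by the authors as count × 1000000 / the circRNA total of a library, with no length term, and were not tested. Entries of 10 other samples were not used.

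J and N were summed per circRNA over the 10 libraries (3 circRNAs are listed more than once, and the first entry was taken). The share, 2J/(2J+N), is the ratio CIRI2 uses. All 1310 gene IDs matched the RefSeq gene table, which was used for names alone. Junction reads, non-junction reads and the interaction of kind of read with group were tested with edgeR 4.0.16 (R 4.3.3). The functions were glmQLFit and glmQLFTest with a prior count of 2, on the whole table with Benjamini-Hochberg adjustment at 0.01. TMM normalization was used for the junction and the non-junction test. The interaction test had library as a block and 1 library size for both kinds of read, without TMM, which entered it as an alternative only. The junction test needed a count above 0 in at least 5 libraries, and the others an entry in all 10. The 6 and 44 high-share circRNAs that failed these filters were not tested. Levels named as scaled are per 10000 reads of that kind after TMM. DESeq2 1.42.0 and limma 3.58.1 served as alternatives, summaries were made in Python 3.11.15, and the scripts were checked on simulated data. DEGseq, the study's tool, was not used. SE is the log2 difference divided by the root of the F statistic.

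CircRNAs were named if they had 1 of the 10 highest shares or 1 of the 10 highest J, an adjusted p under 0.05 in any test, a source other than exonic, a host on the list of widely detected hosts, or a place among the 3 on each side of the threshold, with circRNAs of the same hosts. 1 circRNA that the rule names is not reported here. The high-share circRNAs, host lists and tests were chosen with earlier results of these data known. ZNF827 and PARP8, outside this rule, were named after their values were seen. The precision of a share follows from the reads behind it, and intervals do not cover more than counting error, as no molecular identifiers were used to tell duplicates apart.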

Additional observations from a re-analysis of the deposited data

Results flagged for a closer look

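In 5 of 54 groups of 5 libraries looked at, among the circRNAs named with a call, 1 library lay far from the other 4, which chance gives in about 1 of 20 groups. Junction reads of the SLTM circle in IMPA3 were 146.3 per 10000 junction reads against 123.6 to 128.7 in the other IMPA libraries. Those of the RARB circle in IMPA1 were 38.15 against 20.9 to 22.8, and without IMPA1 its edgeR adjusted p rose to 0.116. Linear reads at the PAPD4 circle in IMA2 were 11.42 per 10000 non-junction reads against 13.42 to 13.92. Linear reads at the longer WWOX circle in IMPA1 were 2.101 against 1.717 to 1.807. The share of the PANK1 circle in IMA4 was 57.69% against 43.18% to 47.37% in the other IMA libraries, and its share call was lost without IMA4 and also without IMPA2, IMPA3, IMPA5 or IMA3. These values use library totals without TMM, and their causes were not tested.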

How the results depend on the processing

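No value with an adjusted p under 0.05 changed sign under the alternatives run. Values without a call did, most often for the share with TMM within each kind of read, where 10 of 49 named circRNAs turned (SLTM from 0.06 to -0.23), and for 1 or 2 circRNAs under some of the other settings. The number of high-share circRNAs became 91 at a share of at least 0.40 and 55 with J/(J+N), and 141 to 153 with a library left out. For junction reads, an adjusted p under 0.05 gave 19 calls and 9 high-share circRNAs lower in IMA. The number lower was 2 with DESeq2 size factors, 1 without TMM, and 8 with DESeq2's Wald test, a mean count of at least 10, or entries in all libraries (the last chosen after seeing the data), and the Wald test gave 2 higher (VASH2 and USP3). With a library left out there were 6 to 12 calls, 1 higher and 1 to 4 lower. For linear reads, 0.05 gave 246 calls, 8 higher and 15 lower, no TMM gave 1 higher and 11 lower, and limma with missing entries gave 1 higher. Without TMM the split of all calls went from 80 higher and 70 lower to 48 and 106. Leaving out a library gave 116 to 151 calls, 1 to 4 higher and 4 to 7 lower. For the share, TMM within each kind of read gave 5 calls with 1 high-share circRNA higher, limma gave 4 with 0, 0.05 gave 63 with 8, and leaving out a library gave 16 to 24 with 2 to 4. The causes of these differences were not tested.

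Replicate numbers are shared by the groups, but same-numbered libraries did not deviate together (correlations of -0.05 to 0.01 for J and -0.04 to 0.07 for N). With the replicate block there were 11 junction calls (1 high-share circRNA higher, 3 lower), 173 linear calls (3 higher, 8 lower) and 20 share calls (3 higher). Of the values of single circRNAs under alternatives, 543 kept their side of the threshold, 47 gained a call and 59 lost one. Depth limited the group at its lower end, where shares rest on few reads per library.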
